A study of Mus musculus with 6 samples.

Results

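Txnip, Slc2a1, Slc2a3, Slc2a5, Hk2, Ldha, Pgk1, Hif1a, Vegfa and Bnip3 are 10 of the 32285 genes counted in the files, taken by symbol as genes of glucose uptake, glycolysis, the hypoxia response and the thioredoxin-binding protein Txnip. They were chosen by a result of these data, the lower value of Vegfa in microglia of the inhibitor-treated mouse (DNC-INHIB) than in those of the untreated mice (DNC-NONE), so the INHIB against NONE values of all 10 are given as a description with no test. The study captured brain myeloid cells as single cells and counted their RNA molecules near the 3′ end with unique molecular identifiers (UMIs), to compare versions V3.0 and V3.1 of a droplet kit. Live CD45+/CD11b+ cells were sorted from 3 male C57BL/6J mice at P89 after cold Dounce homogenization. Cells of each mouse were captured with both kits, which gave 6 libraries. DNC-INHIB is mouse 2 alone, prepared with the transcription inhibitors actinomycin D and triptolide and the translation inhibitor anisomycin, and DNC-NONE is mice 1 and 3, prepared without them.

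Cells take up hexoses through carriers of the Slc2a family, trap glucose by phosphorylation and break it down through glycolysis to pyruvate, which lactate dehydrogenase turns into lactate. When oxygen is low the transcription factor HIF-1, whose alpha subunit is encoded by Hif1a, is stabilized and raises transcription of glycolytic genes, of the angiogenic factor gene Vegfa and of the mitophagy gene Bnip3, while Txnip, which binds thioredoxin and promotes the removal of glucose carriers from the cell surface, is itself induced by glucose. In the brain the fructose carrier Slc2a5 is known as a gene of microglia, and neutrophils are known for living largely on glycolysis.

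The files held 83133615 UMIs in 29412 cell barcodes. Library totals were 15109090 UMIs (V3.0 mouse 1), 11175790 (V3.1 mouse 1), 17006892 (V3.0 mouse 2), 14693129 (V3.1 mouse 2), 6275898 (V3.0 mouse 3) and 18872816 (V3.1 mouse 3). The V3.0 library of mouse 3 stood apart: 948 of its 4401 barcodes (21.5%) passed the cell filter, which asked for 1000 to 4000 genes, no more than 12000 UMIs and a mitochondrial share of no more than 15%, and its barcodes had a median of 809 UMIs. In the other libraries 70.0% to 76.8% passed. Each of the 15 pairs of libraries shared between 1 and 14 barcodes. Results that rest on the V3.0 library of mouse 3 are given with and without it where it changes a call.

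Gates on marker UMIs, which needed at least 3 genes of a list and 3 times the UMIs of every other list, labelled 18687 microglia (67814609 UMIs, median 3519 per cell), 43 border macrophages (190911 UMIs, median 4297) and 317 neutrophils (1911728 UMIs, median 5568). The other passing cells were 69 monocytes, 29 T or NK cells, 3 B cells and 577 cells that fell in no gate. Marker lists that the gates did not use fitted the labels. The 5 check genes of border macrophages summed to 49133 CPM (UMIs of the gene per 1e+06 UMIs of the cells) in that gate, mostly Apoe at 47499 CPM, and to 510.3 CPM in microglia. The 5 check genes of neutrophils, with Wfdc21 the most abundant, summed to 9308 CPM in neutrophils, 14.997 CPM in microglia and 0 in border macrophages. The 4 check genes of microglia, led by Cx3cr1, summed to 7993 CPM in microglia and 498 CPM in neutrophils, and to 2294 CPM in border macrophages, where Fcrls was the most abundant. Border macrophages were few, with 14, 22 and 7 cells in mice 1, 2 and 3, so that 1 UMI in 1 of their libraries can move a level there severalfold.

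Free RNA was gauged from genes that a type should lack. The 10 microglial markers lay in neutrophils at 5.62% to 8.39% of their microglial level, with a median of 6.39%. Among the members, Slc2a5 in neutrophils was at 7.20% of its microglial level, inside that range, and is read as background. The others that were lower in neutrophils lay above it, at 26.9% for Hk2, 31.7% for Slc2a1, 43.6% for Hif1a, 51.2% for Txnip and 54.6% for Bnip3. In the reverse direction, 15 neutrophil markers lay in microglia at a median of 0.192% of their neutrophil level, with Csf3r (71.8%) the exception, and Slc2a3 was at 2.47%. In border macrophages the 10 microglial markers lay at 0% to 64.1% of their microglial level, with a median of 10.8%. That span sets no narrow background for border macrophages, and Slc2a5 (3.51%) and Hk2 (38.7%) lay inside it. The 3 neuronal markers summed to 0.752 CPM in microglia, the 5 astrocyte markers to 0.619 CPM and the 4 endothelial markers to 0.693 CPM, with Cldn5 and Slco1a4 at 0. In border macrophages the endothelial list had 283 CPM, all of it Pltp, with the other 3 genes at 0. The 3 oligodendrocyte markers, mostly Mbp, summed to 23.7 CPM in microglia, 5.24 CPM in border macrophages and 45.5 CPM in neutrophils.

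The first comparison asks how the levels of the 10 genes differ between microglia, border macrophages and neutrophils. Slc2a3 and Pgk1 were highest in neutrophils in every library, and Ldha was higher there than in microglia in every library. Slc2a5 was highest in microglia, at background in neutrophils and at 2 UMIs in border macrophages. Hk2 was highest in microglia, and Txnip, Hif1a and Bnip3 lay at levels in neutrophils that read as higher or as lower than in microglia depending on the scaling. Levels are CPM of all UMIs of the gated cells in a library, and they are compared between types for a gene and not between genes, because 3′ UMI counts are not per length.

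Tests between types used sums over both kits, 1 per mouse and type (9 sums), with mouse as a replicate block, in the edgeR quasi-likelihood test with TMM scaling and Benjamini-Hochberg adjustment over all 8532 genes tested. A gene was called where adjusted p was under 0.05 and the log2 fold change larger than 0.58 in size. Neutrophils gave 19.1% of their UMIs to S100a9 and 17.4% to S100a8, so the scaling matters there. The median log2 fold change of all genes in neutrophils against microglia was -0.27 with TMM, -0.20 with DESeq2 and -1.60 with library totals, and 44.3% of the calls were higher with TMM, 53.1% with DESeq2 and 13.7% with library totals. In border macrophages against microglia the median was -0.39 with TMM, -0.15 with DESeq2 and -0.46 with library totals, and the share of calls that were higher was 44.6%, 74.7% and 39.6%. In the 9-sum fit the tool gave every gene the spread of the trend over all genes (prior degrees of freedom infinite), and without the mouse block its prior degrees of freedom were 30.3, so adjusted p is given from both fits for the calls. Of the 10 members 9 passed the filter on low counts, and Vegfa did not. In neutrophils 3 of these 9 were called higher, against 27.1% of all genes, and 2 lower, against 34.0%. With library totals 3 were called higher, against 11.6% of all genes, and 6 lower, against 72.9%. With cells of at least 500 genes 10 were tested, and 6 were called higher, against 27.4% of all genes, and 2 lower, against 35.1%. In border macrophages 1 of 9 was called higher, against 6.46% of all genes, and 2 lower, against 8.03%. With so few members, and counts that move with the scaling and the cells kept, nothing is read from them about the group as a whole.

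**Figure D1:**
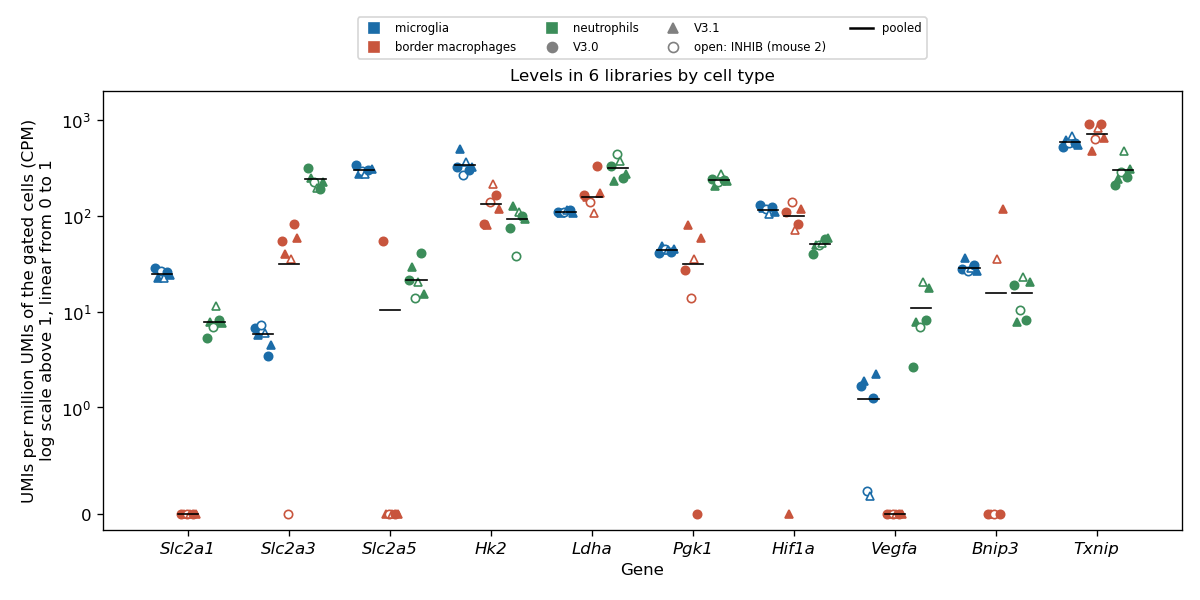
Levels of the 10 genes in CPM (log scale above 1) in 6 libraries of 3 cell types, with circles for V3.0, triangles for V3.1, open symbols for the INHIB mouse and a black line for the pooled level. By pooled level Slc2a3, Ldha and Pgk1 sit highest in neutrophils, Slc2a5 and Hk2 in microglia, and Vegfa of the 2 INHIB libraries sits lowest among the microglial libraries.

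Among the hexose carriers, Slc2a3 (ENSMUSG00000003153, mm10 chr6:122727809-122801640, minus strand), which encodes the high-affinity glucose carrier GLUT3, was at 315, 243, 226, 193, 188 and 224 CPM in the neutrophils of V3.0 mouse 1, V3.1 mouse 1, V3.0 mouse 2, V3.1 mouse 2, V3.0 mouse 3 and V3.1 mouse 3, an order of libraries used for all lists of 6 values here. In microglia the same libraries had 6.78, 5.66, 7.27, 5.95, 3.44 and 4.52 CPM. Every neutrophil value lay far above every microglial value. The log2 fold change was 6.65 (SE 0.16) by the edgeR quasi-likelihood test, higher in 3 of 3 mice, with an adjusted p that the tool wrote as 0 after Benjamini-Hochberg adjustment and 4.43e-30 without the mouse block, and it was 5.33 with library totals. In border macrophages Slc2a3 had 6 UMIs in all, 31.4 CPM with a 95% Poisson interval of 11.5 to 68.4, and 5 of 6 libraries had at least 1. The border macrophage value was above the microglial one in 3 of 3 mice, with a log2 fold change of 2.48 (SE 0.81, adjusted p 0.0202 by the same edgeR quasi-likelihood and Benjamini-Hochberg fit, 0.0422 without the mouse block). That call rests on few UMIs, and it was made under 7 of 13 alternatives. By the same test adjusted p was 0.266 without mouse 1, 0.153 without mouse 3 and 0.0593 without the V3.0 library of mouse 3. The log2 fold change stayed about as large in these fits, at 2.27, 2.21 and 2.41.

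Slc2a5 (ENSMUSG00000028976, mm10 chr4:150119283-150144169, plus strand), which encodes the fructose carrier GLUT5, was at 338, 272, 288, 274, 300.2 and 308 CPM in microglia. In neutrophils it was at 21.4, 28.8, 13.9, 20.1, 40.8 and 15.1 CPM, a pooled level within the range of the microglial markers there. Border macrophages held 2 UMIs of Slc2a5, in 1 cell of V3.0 mouse 1, and 0 in the other 5 libraries. Every microglial value lay above every value of the other types. The log2 fold change was -2.48 (SE 0.21) in neutrophils by the edgeR quasi-likelihood test, lower in 3 of 3 mice, with a Benjamini-Hochberg adjusted p of 1.46e-31, and 5.16e-13 without the mouse block. In border macrophages it was -4.75 (SE 0.56), lower in 3 of 3 mice, with an edgeR quasi-likelihood and Benjamini-Hochberg adjusted p of 1.78e-15, and 5.18e-08 without the mouse block. Both calls were made under all 13 alternatives run, library totals included. The border macrophage ratio, 3.51% of the microglial level, rests on 2 UMIs: the pooled level of 10.5 CPM had a 95% Poisson interval of 1.27 to 37.8, below the 298 CPM of microglia at either end.

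Slc2a1 (ENSMUSG00000028645, mm10 chr4:119108711-119137983, plus strand), which encodes the glucose carrier GLUT1, was at 28.4, 22.2, 26.2, 22.4, 25.6 and 23.9 CPM in microglia. Neutrophils had 15 UMIs, 5.34 to 11.5 CPM over the libraries, with every library below every microglial one on this scale. The log2 fold change in neutrophils was -0.34 with TMM (edgeR quasi-likelihood, Benjamini-Hochberg adjusted p 0.501, lower in 3 of 3 mice by CPM) and -1.66 with library totals, where it was called, and it turned to 0.25 with cells of at least 500 genes. Border macrophages had 0 UMIs of Slc2a1, which with a floor of 3 counts over the group (15.7 CPM) puts them at least 1.58-fold below the 24.8 CPM of microglia. That difference was not called, at a Benjamini-Hochberg adjusted p of 0.0509 by the edgeR quasi-likelihood test, with 0 UMIs in 3 of 3 mice, and it was called under 2 of the 11 alternatives that tested it, library totals (adjusted p 0.0392) and cells of at least 500 genes (0.0368).

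Among the glycolytic enzymes, Ldha (ENSMUSG00000063229, mm10 chr7:46841475-46855627, plus strand), the A subunit of lactate dehydrogenase, was at 326, 228, 442, 371, 245 and 274 CPM in neutrophils. In microglia it was at 108, 107, 108, 113, 113 and 107 CPM. Neutrophils were above microglia in all 6 libraries, with a log2 fold change of 2.86 (SE 0.11) by the edgeR quasi-likelihood test, a Benjamini-Hochberg adjusted p of 5.23e-136, and 6.36e-23 without the mouse block, and 1.53 with library totals. Border macrophages, with 30 UMIs, ranged from 107 to 330.2 CPM (median 161), overlapping the neutrophil values, and their log2 fold change of 0.57 over microglia was not called. Pgk1 (ENSMUSG00000062070, mm10 chrX:106187100-106203699, plus strand), phosphoglycerate kinase, was at 240.4, 202, 226, 273, 237 and 231 CPM in neutrophils and at 40.9, 48.7, 44.3, 43.4, 42.2 and 45.0 CPM in microglia. The 2 sets did not overlap, and the log2 fold change was 3.73 (SE 0.14) by the edgeR quasi-likelihood test, higher in 3 of 3 mice, with a Benjamini-Hochberg adjusted p of 1.27e-158, and 2.51e-27 without the mouse block, and 2.41 with library totals. Ldha and Pgk1 were called higher in neutrophils under all 13 alternatives run. Border macrophages had 6 UMIs of Pgk1, 31.4 CPM (95% Poisson interval 11.5 to 68.4), which does not differ from microglia beyond its spread.

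Hk2 (ENSMUSG00000000628, mm10 chr6:82725025-82774454, minus strand), the hexokinase that traps glucose, was at 320, 493, 263, 360.3, 298 and 321 CPM in microglia. In border macrophages it was at 82.2, 78.9, 139.8, 213, 165 and 116 CPM from 25 UMIs, and in neutrophils at 74.8, 126, 38.3, 109, 97.97 and 93.0 CPM. All 6 microglial values were above all values of the other types, and those of the other types overlapped. In border macrophages the log2 fold change was -1.30 (SE 0.28), lower in 3 of 3 mice, with a Benjamini-Hochberg adjusted p of 8.38e-05 by the edgeR quasi-likelihood test, and 0.00830 without the mouse block, and the call was lost without mouse 1 (log2 fold change -0.75, adjusted p 0.190 over the same test). In neutrophils the log2 fold change was -0.59 with TMM, at the limit, and -1.91 with library totals, and it was called under 4 of 13 alternatives, with an edgeR quasi-likelihood and Benjamini-Hochberg adjusted p of 9.48e-05, and 0.00504 without the mouse block, where the fold was short of the limit. The call was lost without the V3.0 library of mouse 3 (-0.52) and without mouse 1 (-0.49), mouse 2 (-0.53) or mouse 3 (-0.54). Relative to the median gene it was lower with both scalings.

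Hif1a (ENSMUSG00000021109, mm10 chr12:73901375-73947530, plus strand), the regulated subunit of HIF-1, was at 128, 121, 116, 104, 122 and 108 CPM in microglia and at 40.1, 49.7, 48.8, 51.7, 57.2 and 57.8 CPM in neutrophils. On the scale of CPM no library overlapped, but the log2 fold change was 0.13 with TMM, where it was not called, and -1.198 with library totals, so the direction flips with the scaling. Border macrophages, with 19 UMIs, ranged from 0 to 139.8 CPM and could not be told apart from microglia. Bnip3 (ENSMUSG00000078566, mm10 chr7:138890836-138909519, minus strand), a mitophagy receptor gene and HIF target, was at 26.5 to 36.3 CPM in microglia and 7.85 to 23.0 CPM in neutrophils, from 30 UMIs. Its log2 fold change in neutrophils was 0.45 with TMM and -0.87 with library totals, which again differ in direction. It was called lower with library totals (adjusted p 0.00631) and higher with cells of at least 500 genes (0.80, adjusted p 0.00732), and in none of the other alternatives that tested it. Border macrophages had 3 UMIs of Bnip3, a level 54.7% of that in microglia, and the 95% Poisson interval of their 15.7 CPM ran from 3.24 to 45.9 CPM. Vegfa (ENSMUSG00000023951, mm10 chr17:46016993-46032369, minus strand), which encodes a vascular growth factor, had 84 UMIs in microglia and 21 in neutrophils. Its level was 1.24 CPM in microglia (95% Poisson interval 0.988 to 1.53) and 11.0 CPM in neutrophils (6.80 to 16.8). The pooled microglial level joins 1.90 CPM in NONE with 0.190 CPM in INHIB, and NONE neutrophils had 9.40 CPM. The fold changes that follow draw on NONE and INHIB alike. Vegfa did not pass the filter on low counts, and without that filter its log2 fold change in neutrophils was 4.64, with 4.21 at a minimum of 500 genes per cell. In border macrophages there were 0 UMIs of Vegfa, which allows up to 15.7 CPM by the floor of 3 counts and 19.3 CPM by the 95% Poisson limit. A difference from microglia was therefore not detectable at this depth.

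Txnip (ENSMUSG00000038393, mm10 chr3:96557957-96561883, plus strand) was at 515, 614, 571, 675, 564 and 545 CPM in microglia. In border macrophages it ranged from 474 to 908 CPM (median 727, 135 UMIs), and in neutrophils it was at 206, 238, 286, 469, 253 and 307 CPM. Border macrophages overlapped microglia, and by CPM neutrophils lay below both types in all 6 libraries, with their highest value (469) just under the lowest of border macrophages (474). The log2 fold change in neutrophils was 0.37 with TMM (SE 0.11, edgeR quasi-likelihood, Benjamini-Hochberg adjusted p 0.00175, short of the fold limit) and -0.96 with library totals, where it was called, so the direction of Txnip is set by the scaling. It lay above the median of all genes with both scalings. Without mouse 1 it passed the limit in the TMM fit, at 0.61, and with cells of at least 500 genes, at 0.79. In border macrophages its log2 fold change was 0.33 and was not called (Benjamini-Hochberg adjusted p 0.194 by the edgeR quasi-likelihood test, higher in 3 of 3 mice by CPM), and with V3.1 libraries alone it was -0.15.

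**Figure D2:**
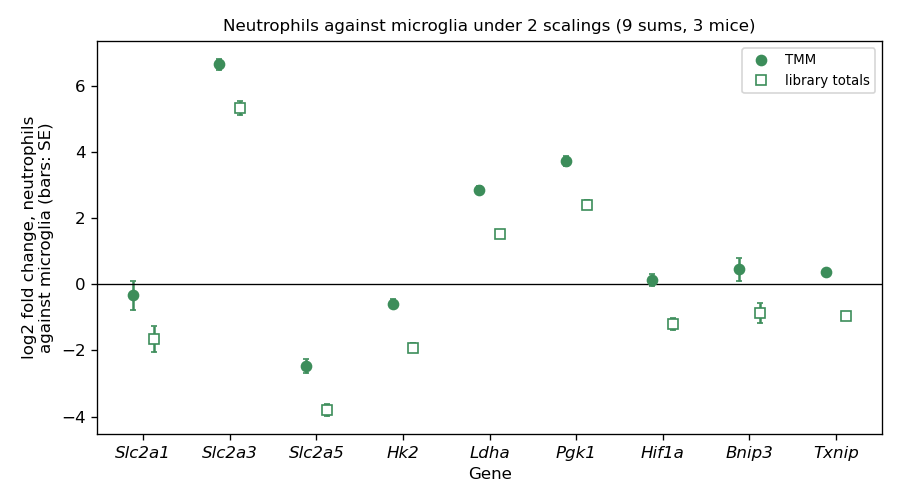
Log2 fold change of neutrophils against microglia for the 9 members tested, with TMM scaling (filled) and library totals (open), bars showing the SE. Slc2a3, Ldha and Pgk1 are above 0 and Slc2a5, Slc2a1 and Hk2 below 0 under both, and Hif1a, Bnip3 and Txnip change sign.

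The order of pooled levels on the scale of CPM was as follows. For Slc2a3 and Ldha neutrophils came first, then border macrophages, then microglia, and the step from border macrophages to microglia was not beyond the spread for Ldha. For Pgk1 neutrophils came first, then microglia, then border macrophages, with the last step not beyond the spread. For Vegfa neutrophils came above microglia, and border macrophages, with 0 UMIs, could not be placed, because their limit of 15.7 CPM is above both. For Hk2 and Hif1a microglia came first, then border macrophages, then neutrophils, and border macrophages did not differ beyond the spread from neutrophils for Hk2 or from either neighbour for Hif1a. The place of neutrophils against microglia turns with the scaling for Hif1a (log2 fold change 0.13 with TMM and -1.198 with library totals). For Slc2a1 and Slc2a5 microglia came first, then neutrophils, then border macrophages, with the last step within counting error. The first step was not called for Slc2a1 with TMM (log2 fold change -0.34). For Bnip3 microglia came first and the other types lay at 15.7 CPM each, with border macrophages not beyond the spread from either and the step to neutrophils dependent on the scaling. For Txnip border macrophages came first, then microglia, then neutrophils, with the first step not beyond the spread. The step from microglia to neutrophils turns with the scaling for Txnip (log2 fold change 0.37 with TMM and -0.96 with library totals).

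Shares of cells with a UMI were compared after each cell was thinned to 2000 UMIs, which left out 724 microglia with fewer. Slc2a3 was seen in 37.2% of neutrophils (118 of 317, Clopper-Pearson 95% interval 31.9 to 42.8) and 1.16% of microglia (1.01 to 1.33). Pgk1 was seen in 35.0% of neutrophils and 8.13% of microglia, and Ldha in 43.8% and 18.8%. Slc2a5 was seen in 42.6% of microglia, 3.79% of neutrophils and 0 of 43 border macrophages, for which the floor of 3 counts is 6.98% and the Clopper-Pearson upper limit 8.22%. Without thinning 1 of the 43 had a UMI of it. Hk2 was seen in 46.7% of microglia, 18.6% of border macrophages and 14.2% of neutrophils. Txnip was seen in 65.8% of microglia, 74.4% of border macrophages and 44.8% of neutrophils. Hif1a was seen in 19.7% of microglia and 10.1% of neutrophils, Slc2a1 in 4.80% and 1.58%, and Bnip3 in 5.49% and 4.42%, the last with overlapping intervals. Thinning sets equal total UMIs per cell, the scale of library totals, and 45.4% of neutrophil UMIs came from the neutrophil gate list. The lower neutrophil shares of Txnip, Hif1a and Bnip3 rest on that scale, as their log2 fold changes with TMM were 0.37, 0.13 and 0.45. The neuronal gene Snap25, which these types should lack, was seen in 0.111% of microglia and in 0 of 317 neutrophils. The share for Vegfa was 0.234% in microglia (0.169 to 0.316), an interval that overlaps that of Snap25 (0.0680 to 0.172), and 1.26% in neutrophils (4 of 317, 0.345 to 3.20), which also overlaps that of Snap25 there (0 to 1.16), with 3 of 6 libraries at 0. In the 2 INHIB libraries the microglial share of Vegfa, 0.0528% with V3.0 and 0 with V3.1, was below that of Snap25, 0.185% and 0.0621%. In the 4 NONE libraries it was 0.338%, 0.305%, 0.344% and 0.428%, in the order used here, above Snap25 at 0.123%, 0.114%, 0 and 0.0952%. These shares are a description, because Vegfa in INHIB chose the list, and they rest on few cells per library. Shares without thinning were higher, at 70.7% of neutrophils and 2.02% of microglia for Slc2a3, 69.4% and 30.6% for Ldha, 67.8% and 14.1% for Pgk1, and 82.3% of microglia and 73.5% of neutrophils for Txnip. The types kept their order for those genes. Without thinning Vegfa was seen in 5.05% of neutrophils (2.91 to 8.07), against 0 for Snap25 (0 to 1.16). In microglia it was seen in 0.391% (0.306 to 0.491), against 0.193% for Snap25 (0.135 to 0.267). Neither pair of these intervals overlaps. The intervals cover counting error only. Among neutrophils, UMIs of Txnip varied more between cells than a Poisson count would, with a variance over mean of 2.13 in the thinned cells (1.11 to 2.89 over the libraries) against 1.201 in microglia (1.14 to 1.30). That of Slc2a3 was 1.46 in neutrophils.

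Other genes of the same pathways were taken from lists of glycolysis, oxygen sensing, hypoxia targets, arrestins and thioredoxin, sugar and lactate transport, and Vegf family and receptors. In neutrophils 46 of the 65 matched genes were tested, and 21 were called higher and 12 lower with TMM, where 27.1% and 34.0% of all genes were, or 13 and 26 with library totals, where 11.6% and 72.9% of all genes were. For glycolysis 8 of 10 were called higher and 2 lower with TMM, and 7 higher and 2 lower with library totals, against those same shares of all genes, with a median log2 fold change of 2.35 and 1.02. Of these genes, Gpi1 (3.98 with TMM, 2.65 with library totals), Pkm (3.58 and 2.26), Hk3 (3.21 and 1.89) and Gapdh (2.76 and 1.43) were higher, and Ldhb (-2.17 and -3.50) and Pfkl (-1.48 and -2.80) were lower. Among the hypoxia targets 5 of 10 were called higher and 4 lower with TMM, and 2 higher and 6 lower with library totals, against the same shares of all genes. Ndrg1 was higher (8.75 and 7.43) and Pfkfb4 (2.16 and 0.83), while Pdk1 (-2.38 and -3.71) and P4ha1 (-2.12 and -3.44) were lower. Ndrg1 had 44 UMIs in neutrophils and 8 in all microglia (0.118 CPM), so the size of its fold change is not read. Around Txnip, Txn1 was higher (5.57 and 4.25) and Arrdc3 (2.51 and 1.19), and Txnrd2 (-3.29 and -4.60) and Mlxipl (-2.40 and -3.73) were lower. Of the transporters Slc2a6 (5.34 and 4.02) and Slc16a3 (3.44 and 2.12) were higher and Slc2a8 (-2.92 and -4.24) and Slc16a7 (-1.35 and -2.67) lower, where Slc16a7 was not called without mouse 3 (log2 fold change -1.05), and of the Vegf genes Nrp2 (-3.65 and -4.97) and Vegfb (-2.22 and -3.55) were lower. Set beside the free-RNA range of 5.62% to 8.39%, the neutrophil levels of Nrp2 (3.13% of the microglial level, 3 UMIs), Txnrd2 (4.04%, 2 UMIs), Slc2a8 (5.30%, 3 UMIs), Mlxipl (7.63%, 20 UMIs) and Pdk1 (7.75%, 11 UMIs) lay in it or below and are read as background, so the size of their fold changes is not read. Vegfb (8.48%, 11 UMIs), Ldhb (8.85%, 67 UMIs) and P4ha1 (9.10%, 57 UMIs) lay just above it. In oxygen sensing 0 of 5 were called with TMM and 5 of 5 were lower with library totals, where 72.9% of all genes were lower. In border macrophages 3 of 46 were called higher and 5 lower, where 6.46% and 8.03% of all genes were: Gpi1 (log2 fold change 1.17), Txn1 (1.41) and Nrp1 (1.58) were higher and Ldhb (-3.39), Gapdh (-0.77), Pdk1 (-2.16), P4ha1 (-1.28) and Mlxipl (-3.04) lower. Several of these calls were lost when 1 mouse or library was left out, some with a fold change about as large: Gpi1 (log2 fold change 1.11) and Txn1 (1.04) were not called without mouse 2, Pdk1 was not called without mouse 1 (-1.30), mouse 3 (-1.72) or the V3.0 library of mouse 3 (-1.93), and Gapdh was not called without mouse 1 (-0.38), mouse 2 (-0.86), mouse 3 (-0.74) or that library (-0.60).

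The INHIB against NONE comparison sets cells prepared with the inhibitors beside cells prepared without them, and it has 1 mouse against 2. Whether a difference arose during preparation was not tested. Its values for the members are a description, because Vegfa of this contrast chose the list. The 10 members were measured in microglia of all 3 mice, and 0.266% of the 13170 genes tested were called either way, which is printed as background and from which nothing is read. Vegfa was at 1.66, 1.89, 0.21, 0.17, 1.25 and 2.23 CPM in microglia of the 6 libraries, from 21, 18, 3, 2, 4 and 36 UMIs. The 2 INHIB libraries lay below all 4 NONE libraries. INHIB had 5 UMIs in 5 of 7364 cells (0.0679%) and NONE had 79 UMIs in 68 of 11323 cells (0.601%). Cells are not replicates here, with 1 mouse against 2. The low INHIB value chose the list, so these values lend it no support. By mouse the level was 1.76, 0.190 and 2.07 CPM in mice 1, 2 and 3, and the pooled NONE level was 9.98 times the INHIB level, with a 95% counting interval of 4.10 to 31.6 that covers no spread between mice. The fitted log2 fold change was -3.27, a value that rests on the 5 INHIB UMIs. It was -3.57 to -2.79 over 11 alternatives, which reuse cells of the same mice. In neutrophils Vegfa was not low in INHIB: 6 of 105 cells (5.71%) had a UMI against 10 of 212 in NONE (4.72%), and levels were 5.29, 14.2 and 15.4 CPM in mice 1, 2 and 3. Whether the inhibitor difference of Vegfa differs between microglia and neutrophils was not tested.

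**Figure D3:**
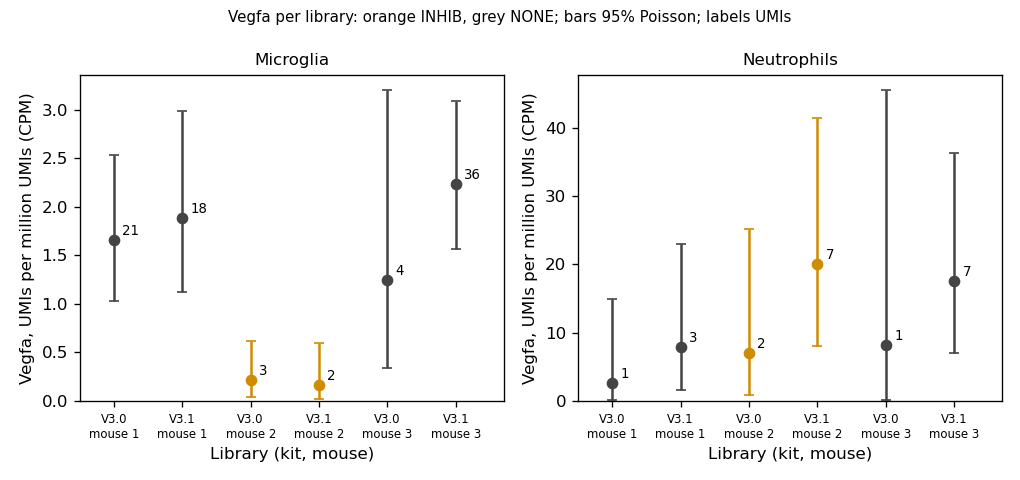
Vegfa in CPM per library in microglia (left) and neutrophils (right), with 95% Poisson bars and the number of UMIs beside each point, orange for INHIB and grey for NONE. In microglia the INHIB libraries, at 0.21 and 0.17 CPM, lie below the NONE libraries, and in neutrophils the INHIB libraries are at 6.97 and 20.1 CPM and the NONE libraries run from 2.67 to 17.6 CPM.

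The other members differed little between INHIB and NONE microglia, with fitted log2 fold changes between -0.19 for Hk2 and 0.33 for Slc2a3. Txnip was at 558, 619 and 548 CPM in mice 1, 2 and 3, so that the INHIB mouse was above both NONE mice, at a log2 fold change of 0.18. Hk2 was at 394, 308 and 317 CPM, with the INHIB mouse below both, and its log2 fold change was -0.04 without mouse 1 and -0.33 without mouse 3. Slc2a3 was at 6.301, 6.66 and 4.34 CPM, and its log2 fold change was 0.62 without mouse 1 and 0.11 without mouse 3. Slc2a1 lay between 24.1 and 25.7 CPM over the 3 mice, and Slc2a5 between 282 and 309.6 CPM. Ldha lay between 107.6 and 110.3 CPM, and Pgk1 between 43.9 and 44.5 CPM. Hif1a was at 125, 110.4 and 110.1 CPM and Bnip3 at 31.3, 27.5 and 27.4 CPM, with mouse 1 highest and mice 2 and 3 alike for both. In neutrophils of the INHIB mouse Txnip was at 386 CPM against 222 and 294 in the NONE mice, and Ldha at 403 CPM against 276 and 267, with no test. By library, INHIB Txnip was at 286 CPM with V3.0 and 469 CPM with V3.1. The NONE libraries ran from 206 to 307 CPM, so the V3.0 INHIB value lay inside their range. Of the 57 list genes tested in microglia, 1 was called: Ddit4, a hypoxia and stress-response gene, was at 47.7, 116 and 57.3 CPM in mice 1, 2 and 3, with a log2 fold change of 1.16 in INHIB (SE 0.11, edgeR quasi-likelihood, Benjamini-Hochberg adjusted p 0.000429, the 1 INHIB mouse above both NONE mice). That fit has 3 sums and 1 residual degree of freedom, the lone INHIB mouse is assumed to vary like the others, and the inhibitors cannot be told apart from that mouse. The adjusted p of Ddit4 was below 0.05 under all 9 alternatives that gave a test. The other 56 list genes were not called.

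The kit comparison asks whether V3.1 differs from V3.0 in the 3 libraries of each kit from the same 3 mice. None of the 10 members was called in microglia (edgeR quasi-likelihood, Benjamini-Hochberg), against 374 of 12012 genes or 3.11% of all genes, and 589 of 12273 or 4.80% with mouse as a replicate block. In the edgeR quasi-likelihood fit without a mouse term, 3499 of all genes and 2 of the members, Hk2 and Slc2a1, had an unadjusted p below 0.05. With mouse as a replicate block these were 4858 of all genes and, of the members, Hk2, Slc2a1, Txnip and Hif1a. For Txnip the Benjamini-Hochberg adjusted p was 0.0243 with the block and 0.197 without it. The Txnip log2 fold change, 0.17 in either fit, was short of the fold limit, and by CPM mouse 3 went the other way. DESeq2 also called 0 of 10 members, against 306 of 12012 genes. Hk2 was nearest to a call: its level was 293.5 CPM on average with V3.0 (SD 28.7, n = 3) and 391 with V3.1 (SD 90.0, n = 3). In 3 of 3 mice the V3.1 library had the higher value, with a log2 fold change of 0.43 (SE 0.12, edgeR quasi-likelihood, Benjamini-Hochberg adjusted p 0.0360, 2.13e-05 with the mouse block), short of the fold limit. Over 12 alternatives it ran from 0.31 to 0.56. Slc2a1 and Hif1a were lower with V3.1 in 3 of 3 mice by CPM, with log2 fold changes of -0.22 and -0.12 that were not past either limit. Vegfa had a log2 fold change of 0.63 (SE 0.70), with 1.60 without mouse 1 and 0.08 without mouse 3, and the other members lay between -0.25 and 0.17. Of 51 list genes tested, Slc2a12 was called higher with V3.1 (log2 fold change 1.02, SE 0.17, edgeR quasi-likelihood, Benjamini-Hochberg adjusted p 0.00274, higher in 3 of 3 mice), and with equal numbers of microglia it was not called (0.76). In neutrophils Txnip, Hif1a and Vegfa, picked from the 10 for this pattern, had the higher CPM with V3.1 in 3 of 3 mice. No test was run in that type alone. Hif1a rested on 7 to 23 UMIs per library, with mouse 3 at 57.2 CPM (V3.0) and 57.8 CPM (V3.1). Vegfa rested on 1 to 7 UMIs per library. The direction for Hif1a was opposite to microglia, but with these counts no reversal is read. The kit effect was tested for a difference between cell types in 16 gene and type pairs, and 0 passed, with a lowest adjusted p of 0.832. Of all 6919 genes in that fit 3 were called, so nothing is read from the 0.

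Txnip, Slc2a5 and Vegfa were compared over 18 profiles, 1 per library and type, with the genes kept by a floor of 20 CPM. These were 5892 other genes, or 5893 for Vegfa, and the rankings hold among them only. Slc2a5 was most like Serpine2 (Pearson r 0.99 of log2 CPM), Gal3st4, Pck2, Cops3 and Ginm1. Txnip was most like Lrpap1 (0.92), Tm6sf1, Nfe2l2, Tent5a and Mcfd2, and Vegfa most like G0s2 (0.93), Cep19, Abca13, Trp53inp2 and Gadd45a. The profiles share libraries and mice, so these are descriptions. Across thinned microglia the 45 member pairs had mean rank correlations between -0.019 and 0.028, which is no finding in counts this sparse.

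Annotated transcripts overlap some members: Gm15441 lies antisense to Txnip, Gm12867 and Gm12868 antisense to Slc2a1, Gm15283 antisense to Hif1a, Gm17034 antisense to Hk2 and Gm45507 antisense to Bnip3, and Gm49321 lies on the strand of Hif1a and is absent from the files. Promoters came from RefSeq (GRCm38.p6), 300 bases around each start, with entries for 9 of the 10 members and none for Slc2a3. ACGTG and GCGTG, the core known for binding of HIF, and CACGTG, which holds ACGTG, were searched on both strands. ACGTG or GCGTG was in 43.8% of all 32851 promoters, and in 9 of the 11 entries of the members, which belong to 8 of 9 genes, with Vegfa through 1 of its 2 entries. CACGTG was in 7.15% of all promoters and in 1 entry each of Ldha, Hif1a and Bnip3. A match of letters is a description and not a site. Stretches of Ldha (chr7:46845644-46845789, plus strand) and Pgk1 (chrX:106186935-106186994, plus strand), the enzymes that were called higher in neutrophils, are shown with the searched letters in capitals, without annotated exon bases.
Ldha: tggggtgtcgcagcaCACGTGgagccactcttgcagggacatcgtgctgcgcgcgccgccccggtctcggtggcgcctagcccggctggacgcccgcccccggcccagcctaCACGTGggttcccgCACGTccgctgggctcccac
Pgk1: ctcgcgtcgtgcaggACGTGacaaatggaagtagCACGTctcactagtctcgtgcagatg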

How the data were processed

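UMI counts of 6 droplet libraries (10x V3.0 and V3.1, mouse) were used as the authors deposited them, made with Cell Ranger 5.0.0 on the GRCm38 (mm10) genome per the submitters' notes. A cell was kept if it had 1000 to 4000 genes, no more than 12000 UMIs and a mitochondrial share of no more than 15%. Gates needed 3 genes of a marker list and 3 times the UMIs of each other list; doublets were handled by that dominance and the cap of 12000 UMIs, with no doublet caller run. Counts were summed by library, or by mouse over both kits, and compared with edgeR 4.0.16 (R 4.3.3; TMM, filterByExpr, quasi-likelihood test, Benjamini-Hochberg; called at adjusted p below 0.05 and log2 fold change beyond 0.58), and the fits were tested on simulated data. SE is the log2 fold change over the root of F. DESeq2 1.42.0 and other settings were alternatives. Levels are CPM of gated UMIs, thinning used seed 1, and the rest was done in Python 3.11.15 (scipy 1.17.1, numpy 2.4.6, matplotlib 3.10.9, pandas 2.3.3). Intervals are 95% and floors 3 counts. The labels give each mouse to 1 V3.0 and 1 V3.1 library; deviations of the 2 libraries from their kit means correlated across genes within mice 1, 2 and 3 (r 0.263, 0.402 and 0.112), so mouse was used as a block where named. All 10 members are named in every comparison; from each pathway list, called genes are named, at most 4 per list by size of log2 fold change with TMM, and for glycolysis in neutrophils also the 2 called lower. The members and lists were chosen with earlier results of these data known. Aldoa matches 2 rows of the files and was left out, so 65 of 66 list genes were used. A gene of the microglial check list is not reported here.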

Additional observations from a re-analysis of the deposited data

Results flagged for a closer look

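Of 28 gene and type profiles over 6 libraries, 3 had 1 library far from the other 5; chance gives about 1 in 20 groups such a library. Slc2a5 in border macrophages was at 54.8 CPM in V3.0 mouse 1 (2 UMIs) and at 0 in the rest. Ldha in border macrophages was at 330.2 CPM in V3.0 mouse 3 (4 UMIs). Bnip3 in border macrophages was at 116 CPM in V3.1 mouse 3 (2 UMIs). Border macrophages numbered 43 cells, so these levels rest on few UMIs.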

How the results depend on the processing

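Member calls of Slc2a3, Ldha, Pgk1 and Slc2a5 in neutrophils and of Slc2a5 in border macrophages held under all 13 alternatives run. Some fold changes of members changed sign, 6 for the kit, 12 in border macrophages and 5 in neutrophils, and the cause was not tested. For the kit in microglia these were Slc2a3 0.48 with equal numbers of cells, Slc2a5 0.0049 without replicate 1 (leaving out 1 mouse, -0.19 to 0.0049), and Ldha -0.00013 with library totals, -0.010 at 500 genes, -0.020 without replicate 2 (-0.020 to 0.047) and -0.032 with equal numbers. In border macrophages they were Txnip -0.15, Pgk1 0.096 and Bnip3 0.27 with V3.1 libraries, Ldha -0.30 with the stricter gate, Pgk1 0.11 with the looser gate, Hif1a 0.045 with DESeq2, 0.32 and 0.025 without replicates 1 and 3 (-0.63 to 0.32), 0.0072 without the V3.0 library of mouse 3, 0.040 without the replicate block and 0.12 with V3.0 libraries, and Bnip3 0.024 without replicate 1 (-1.97 to 0.024). For the inhibitors, where members have no test, signs changed for Pgk1 (0.0073 without the count filter, 0.015 without replicate 3, 0.13 with V3.0 libraries), Slc2a1 (0.0016 at 500 genes, 0.017 without replicate 1), Ldha (-0.0061 with V3.0 libraries), and Hif1a (0.0026) and Bnip3 (0.0081) without replicate 1. In neutrophils they were Txnip -0.96, Hif1a -1.20 and Bnip3 -0.87 with library totals, Slc2a1 0.25 at 500 genes and Hif1a -0.14 with V3.0 libraries.

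Genes called moved as follows. Kit calls went from 374 to 178 to 406 leaving out 1 mouse, 589 with the replicate block and 237 with equal numbers of cells. Calls for inhibitors went from 35 to 15 with DESeq2, 125 without the count filter, 115 with library totals, 113 at 500 genes, 86 with the stricter and 88 with the looser gate, 80 without the V3.0 library of mouse 3, 85 with V3.0 and 69 with V3.1 libraries. Calls in border macrophages went from 1236 to 659 with the stricter gate, 690 with V3.0 and 753 with V3.1 libraries, and 684 to 868 leaving out 1 mouse. Calls in neutrophils went from 5212 to 3189 with V3.0 libraries, and 4158 to 4565 leaving out 1 mouse.

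The looser gate and library totals were chosen after seeing the data. Without replicate 2 the inhibitor arm is empty and was not run, and without replicates 1 or 3 it has values only. Depth limits border macrophages most: 0 UMIs in their 43 cells allow up to 15.7 CPM, and with 1 INHIB mouse the inhibitors and that mouse cannot be told apart.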

Other observations

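Among gates outside the comparisons, 69 monocytes had 528 CPM of Txnip, 231 of Ldha, 182 of Pgk1 and 111 of Hif1a, with 1 UMI each of Slc2a3 and Slc2a5 and 0 of Vegfa. The 29 T or NK cells had 536 CPM of Txnip and 273 of Ldha, and 5 UMIs of Slc2a3.

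The 73 microglia with a Vegfa UMI, a group picked after the data were seen, were NONE cells in 68 cases and deeper than the others (median 4046 against 3518 UMIs). They had 82.6 CPM of Slc2a1 from 24 UMIs (95% Poisson interval 52.9 to 122.9), against 24.5 CPM (23.4 to 25.8) in the microglia without one. Ldha was at 186 CPM (139.6 to 242) against 108 CPM, and Txnip at 440.4 CPM (367 to 524) against 579 CPM. Hif1a was at 165 CPM (122 to 219) against 115 CPM, and for Hk2, Slc2a5, Slc2a3, Pgk1 and Bnip3 the interval held the level of the other microglia. These intervals cover counting error only, and the cells of 3 mice are pooled in them. Across thinned microglia Slc2a1 and Vegfa had a mean rank correlation of 0.028. No test was made, and no difference between the 2 groups of cells is read from these values.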
